A study of Mus musculus with 4 samples.

Results

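The cells described here are those of a mouse cerebellum single-cell RNA-seq series that carry transcripts of inhibitory neurons but no transcript of Pax2, the transcription factor of newly made cerebellar inhibitory interneurons. They were chosen by the unique molecular identifiers (UMIs, each standing for 1 captured RNA molecule) of 14 genes. A cell was kept when it had at least 500 genes, at most 20% mitochondrial UMIs, no UMI of Pax2, and a UMI of at least 3 of the 8 genes Gad1, Gad2, Slc32a1, Slc6a5, Tfap2b, Kit, Sorcs3 and Nxph1. At least 1 of these had to be Gad1 or Gad2, and cells with a UMI of Atoh1, Pcp2, C1qa, Cldn5 or Aqp4, genes of granule cell progenitors, Purkinje cells, microglia, endothelium and astrocytes, were left out. The rule kept 274 of 42576 cells (0.644%), and they are called the gated cells below. Another 1319 cells met every condition but held Pax2 UMIs; these Pax2-positive cells of the same gate are the closest comparison.

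Whole cerebella were dissociated with trypsin and captured in droplets, as 1 library each of Eftud2 cKO (conditional knockout) at postnatal day 14, WT at day 14, Eftud2 cKO at day 10 and WT at day 10, called P14 cKO, P14 WT, P10 cKO and P10 WT. Eftud2 encodes a GTPase of the U5 particle of the spliceosome, and the series title places its loss in Purkinje cells; the Cre line, the strain, the sex and the number of animals per library were not given in the labels. With 1 library per group, a difference between genotypes at one age or between ages has no replicate check, and intervals below cover counting error only.

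In the cerebellum, inhibitory interneurons arise from Ptf1a-positive progenitors, pass through a Pax2-positive stage while they migrate through the white matter, and then lose Pax2 as they become the basket, stellate, Golgi and other interneurons. Gad1 and Gad2 make GABA from glutamate, Slc32a1 loads GABA and glycine into vesicles, and Slc6a5 takes up glycine. Kit marks molecular layer interneurons, and in the adult mouse Sorcs3 and Nxph1 mark different kinds of them. Olig1, Olig2, Sox10, Pdgfra, Cspg4 and Gpr17 are textbook genes of the oligodendrocyte lineage, from dividing precursors (Pdgfra, Cspg4) to cells about to make myelin (Gpr17), and none of them was part of the rule.

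The gated cells numbered 50 in P14 cKO, 115 in P14 WT, 66 in P10 cKO and 43 in P10 WT. Their summed UMIs were 887608 in P14 cKO, 1075114 in P14 WT, 1256642 in P10 cKO and 440491 in P10 WT, from cells of 914 to 114235 UMIs. The median gated cell had 15096 UMIs in P14 cKO, against 8621 in P14 WT, and 18436 in P10 cKO, against 9649 in P10 WT, so the gated cells of both cKO libraries were the more deeply read. File headers name Cell Ranger 7.1.0 for both P14 libraries, 7.0.1 for P10 cKO and 5.0.0 for P10 WT, so at day 10 genotype and read counting cannot be told apart. Between 7 and 76 cell barcodes were shared by any pair of libraries, and 4 gated cells carried one. Xist, the RNA of the inactive X chromosome, stood at 0 CPM (a gene's UMIs scaled to a common library total) in the gated cells of P10 cKO and between 1069 and 1737 CPM in those of the other libraries, so in the P10 pair the sex of the source animals and the genotype cannot be told apart either.

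The gated cells fell into separate kinds, and about as many carried oligodendrocyte-lineage genes as lacked them. Of the 274 cells, 110 had UMIs of all 6 of Olig1, Olig2, Sox10, Pdgfra, Cspg4 and Gpr17, another 24 had UMIs of 5 and 7 had UMIs of 4. At the other end 105 cells had none and 26 had 1 of the 6, and 2 cells lay in between. This gap was seen in the data, so the cells were split after their values were known, into 143 Olig+ cells with at least 2 of the 6 genes and 131 Olig- cells with 0 or 1. Olig+ cells made up 44% of the gated cells of P14 cKO (22 of 50), 50.4% of P14 WT (58 of 115), 63.6% of P10 cKO (42 of 66) and 48.8% of P10 WT (21 of 43). Among Pax2-positive cells of the gate, 33 of 1319 had at least 2 of the 6 genes and 13 had at least 4. The label under which these cells were proposed, Pax2 negative GABAergic interneurons, therefore goes against the data for the Olig+ cells, and the cells are named here by the rule and by these genes.

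**Figure D1:**
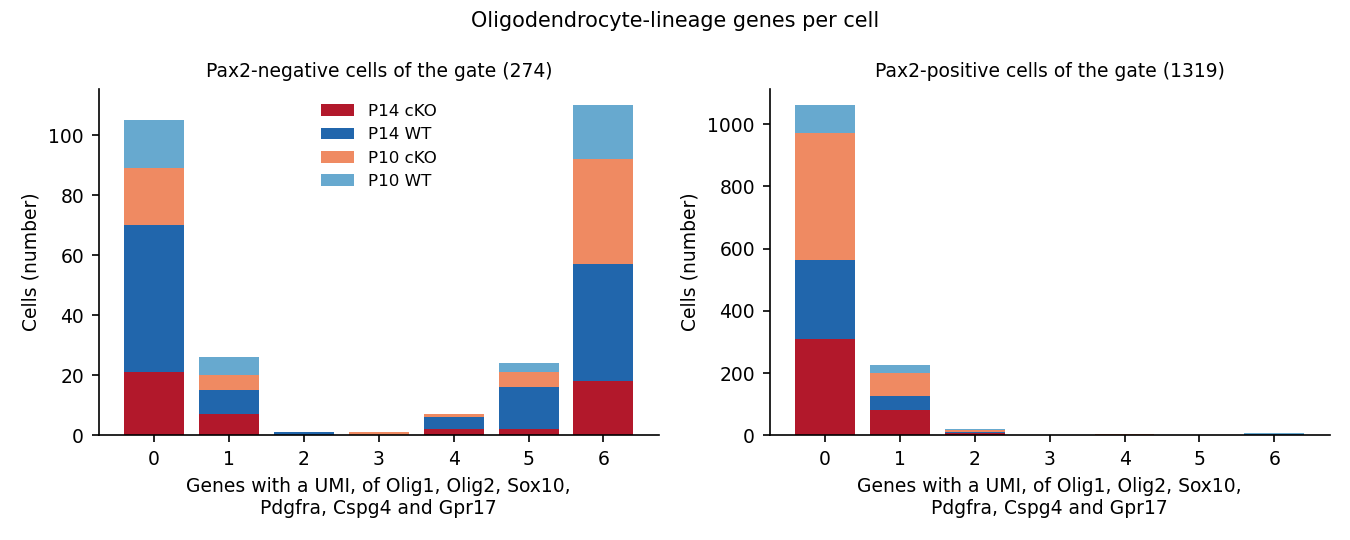
Number of cells (vertical axis) by how many of 6 oligodendrocyte-lineage genes had a UMI (horizontal axis), for the 274 gated cells (left) and the 1319 Pax2-positive cells of the same gate (right), with library as colour. The gated cells pile up at 0 and at 6 genes in every library, while the Pax2-positive cells lie almost wholly at 0 and 1.

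The 2 kinds entered the gate through different genes. Among Olig+ cells 96.5% had a UMI of Gad1, 98.6% of Nxph1, a secreted ligand of neurexins, and 93.0% of Sorcs3, a sorting receptor, while 5.59% had Gad2, 0.699% Slc6a5 and 0 of 143 had Slc32a1. The combination of Gad1, Sorcs3 and Nxph1 alone accounted for 81 Olig+ cells, and the same with Kit for 46. Among Olig- cells 83.2% had Gad1, 83.2% Gad2, 74.8% Kit, 57.3% Tfap2b, 55.0% Slc6a5 and 41.2% Slc32a1, but only 13.7% had Sorcs3 and 15.3% Nxph1. Sorcs3 and Nxph1 were found together in 132 Olig+ cells and in 2 Olig- cells. Of the Pax2-positive cells 88.9% had Gad1, 86.5% Gad2, 70.3% Kit, 83.5% Tfap2b, 81.0% Slc6a5, 64.5% Slc32a1, 9.86% Sorcs3 and 9.70% Nxph1. All 3 sets passed the rule on these genes, so the shares are a description. The Olig+ cells were the deeper ones, with a median of 15305 UMIs, against 5829 in Olig- cells and 10377 in Pax2-positive cells.

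Summed levels of these rule genes are given as a description. In Olig+ cells Gad1 stood at 65.5 CPM in P14 cKO, 95.8 in P14 WT, 66.4 in P10 cKO and 79.5 in P10 WT. In Olig- cells it stood at 844 CPM in P14 cKO, 538 in P14 WT, 204 in P10 cKO and 125 in P10 WT, above the Olig+ value of each library. Nxph1 ran the other way, at 1065 CPM in P14 cKO, 1651 in P14 WT, 1058 in P10 cKO and 265 in P10 WT in Olig+ cells, against at most 79.9 CPM in Olig- cells of any library. Sorcs3 was at 251, 438, 297 and 90.8 CPM in Olig+ cells of P14 cKO, P14 WT, P10 cKO and P10 WT, and at 21.6, 122, 14.8 and 0 CPM in the Olig- cells of the same libraries. Gad2 did not pass 4.92 CPM in Olig+ cells of any library, while in Olig- cells it was at 519 CPM in P14 cKO, 419 in P14 WT, 148 in P10 cKO and 130.5 in P10 WT.

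Transcription factors that the rule did not use split the same way. Olig1 was at 903 CPM in P14 cKO, 978 in P14 WT, 765 in P10 cKO and 1253 in P10 WT in Olig+ cells, with the 6 genes themselves having made the split. Lhx5, a LIM homeodomain factor of the GABAergic lineage, was at 115 CPM in P14 cKO, 89.2 in P14 WT, 82.9 in P10 cKO and 148 in P10 WT in Olig- cells, and at most at 3.88 CPM in Olig+ cells. Tfap2a, an AP-2 factor of the same lineage, was at 155, 119, 110 and 136 CPM in the Olig- cells of P14 cKO, P14 WT, P10 cKO and P10 WT, and at most at 1.09 CPM in Olig+ cells. Per cell, 48.1% of Olig- cells had a UMI of Lhx5 and 51.9% of Tfap2a, against 2.10% and 0.699% of the deeper Olig+ cells. Lhx1, another LIM homeodomain factor, split less sharply, with a UMI in 46.6% of Olig- cells and 15.4% of Olig+ cells.

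**Figure D2:**
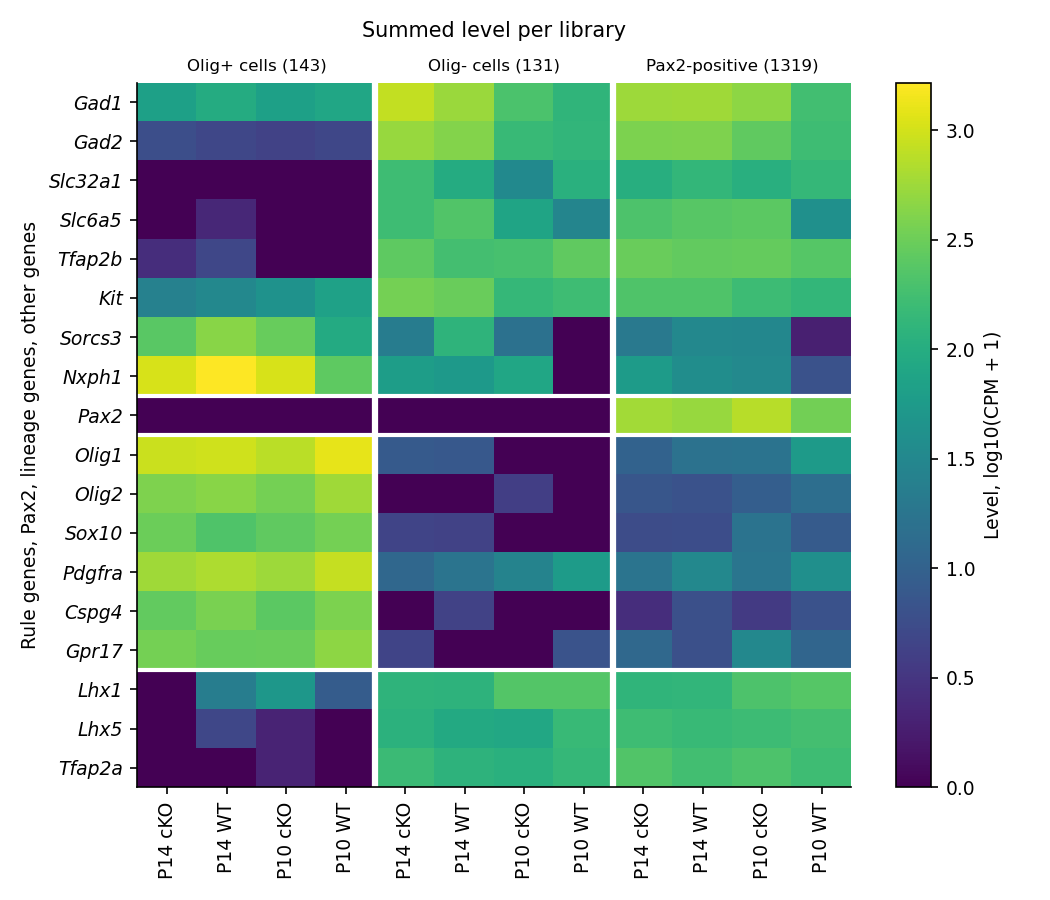
Summed level, as log10(CPM + 1), of the 8 genes required by the rule, Pax2, the 6 oligodendrocyte-lineage genes and 3 other genes (rows), in Olig+ gated cells, Olig- gated cells and Pax2-positive cells of each library (columns). Nxph1 and Sorcs3 are brightest in Olig+ cells, where Slc32a1 is at 0 in all 4 libraries.

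A few markers of mature or specialised interneurons had low summed levels. Pvalb, the calcium buffer of mature basket and stellate cells, did not pass 7.57 CPM in either kind in any library, and Grm2, the glutamate receptor of Golgi cells, did not pass 5.67 CPM. Prkcd was at 0 in all of them. Ptf1a, the progenitor factor, was at 0 in Olig+ cells and at most at 5.92 CPM in Olig- cells. The 12 Golgi and Purkinje layer interneuron genes, Grm2 among them, summed to more in Olig+ cells. Their sums were 324, 461, 341 and 163 CPM in Olig+ cells of P14 cKO, P14 WT, P10 cKO and P10 WT. In the same libraries they were 64.9, 89.2, 91.8 and 28.4 CPM in Olig- cells and 69.5, 80.0, 83.3 and 25.7 CPM in Pax2-positive cells. Many of the 12 genes had no UMI, namely 6, 6, 5 and 8 in Olig+ cells of these libraries. In Olig- cells 9, 7, 7 and 7 had none, and in Pax2-positive cells 2, 2, 3 and 7. The higher sums in Olig+ cells therefore rest on part of the list and do not show a higher level of Golgi cell genes as a group. Rora, a nuclear receptor that molecular layer interneurons keep, had 4319 UMIs in the Olig- cells of P14 cKO, 4779 in those of P14 WT, 1829 in those of P10 cKO and 29 in those of P10 WT. The list of 12 molecular layer interneuron genes that holds it summed to 17622 CPM in P14 cKO, 17624 in P14 WT, 6647 in P10 cKO and 755 in P10 WT in Olig- cells. Rora alone made up 15574, 15782, 5416 and 165 CPM of these sums, so the list sum mainly follows Rora except in P10 WT, where Lhx1, a LIM homeodomain factor, was higher at 227 CPM. In Pax2-positive cells the same list summed to 9990 CPM in P14 cKO, 11449 in P14 WT, 10247 in P10 cKO and 812 in P10 WT, and in both sets the P10 WT library was far below the others.

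The mix of Olig+ and Olig- cells differed on either side of the border of the rule. Of the 274 gated cells, 138 had exactly 3 of the 8 required genes, and 93 of these were Olig+ cells. Just outside, 157 cells met every other condition with 2 of the 8 genes, and 29 of them had at least 2 of the 6 lineage genes. Sorcs3 was present in 88 of the cells with 3 genes, against 8 of those with 2, and Nxph1 in 100, against 63. The median depth was 12382 UMIs inside the border and 10108 outside it.

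The Olig+ cells were a small part of the oligodendrocyte-lineage cells in the suspensions. Over all cells, 345 in P14 cKO, 595 in P14 WT, 235 in P10 cKO and 833 in P10 WT had at least 4 of the 6 lineage genes. The gated cells included 6.38% of them in P14 cKO, 9.58% in P14 WT, 17.4% in P10 cKO and 2.52% in P10 WT. Gad1 UMIs were found in 12.8% of these lineage cells in P14 cKO, 12.4% in P14 WT, 25.1% in P10 cKO and 8.16% in P10 WT. In cells defined likewise by macrophage genes, which should lack Gad1, the shares were 5.25%, 1.16%, 3.94% and 0.929% in the same libraries. The median depths of the lineage cells were 35625, 20276, 26542 and 14331 UMIs in P14 cKO, P14 WT, P10 cKO and P10 WT, and those of the macrophage cells were 15516, 8823, 10905 and 7132.5 UMIs. With every cell thinned to 2000 UMIs the Gad1 shares were 3.20%, 2.53%, 2.14% and 0.971% of lineage cells and 0.650%, 0.635%, 1.50% and 0.179% of macrophage cells, in the same order of libraries. Nxph1 was found in 64.3%, 79.5%, 71.9% and 61.3% of lineage cells and in at most 3.38% of macrophage cells. Gad2, in contrast, was found in 4.35%, 0.840%, 5.11% and 1.08% of lineage cells in P14 cKO, P14 WT, P10 cKO and P10 WT, and in 4.35%, 0.814%, 1.97% and 1.06% of macrophage cells. After thinning, Gad2 was left in 2 of 344, 0 of 592, 2 of 234 and 0 of 824 lineage cells, and in 13 of 615, 3 of 787, 0 of 333 and 7 of 2798 macrophage cells, in the same order of libraries.

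The share of gated cells in a library was 0.793% (95% exact binomial interval 0.589 to 1.04) in P14 cKO, against 0.747% (0.617 to 0.896) in P14 WT. It was 1.00% (0.775 to 1.27) in P10 cKO, against 0.301% (0.218 to 0.405) in P10 WT. The P14 intervals overlapped and the P10 intervals did not. Olig+ cells were 0.349% of cells in P14 cKO, 0.377% in P14 WT, 0.637% in P10 cKO and 0.147% in P10 WT, and Olig- cells were 0.444%, 0.370%, 0.364% and 0.154% in the same libraries. The Pax2-positive cells were 6.39% of cells in P14 cKO, 1.97% in P14 WT, 7.51% in P10 cKO and 0.826% in P10 WT.

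These shares changed when all cells were brought to the same depth. After each cell was thinned to 2000 UMIs, with 731, 1097, 258 and 1665 shallower cells of P14 cKO, P14 WT, P10 cKO and P10 WT left out, the rule kept 106 cells of P14 cKO (1.90%), 93 of P14 WT (0.650%), 58 of P10 cKO (0.916%) and 12 of P10 WT (0.0951%). Most of these were other cells than before: 73, 53, 46 and 7 of them held Pax2 UMIs that thinning had removed, and 18, 37, 9 and 3 were gated cells. Only 5, 6, 5 and 0 of the cells kept after thinning had at least 2 of the 6 lineage genes, counted on all UMIs. These were 4.72%, 6.45%, 8.62% and 0%, so the Olig+ shares given above hold for the gate with all UMIs and not at equal depth. Cells that still held Pax2 in the same gate after thinning were 2.64% of cells in P14 cKO, 0.860% in P14 WT, 3.09% in P10 cKO and 0.190% in P10 WT. The ratio of P14 cKO to P14 WT shares was 1.06 with all UMIs and 2.92 after thinning.

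**Figure D3:**
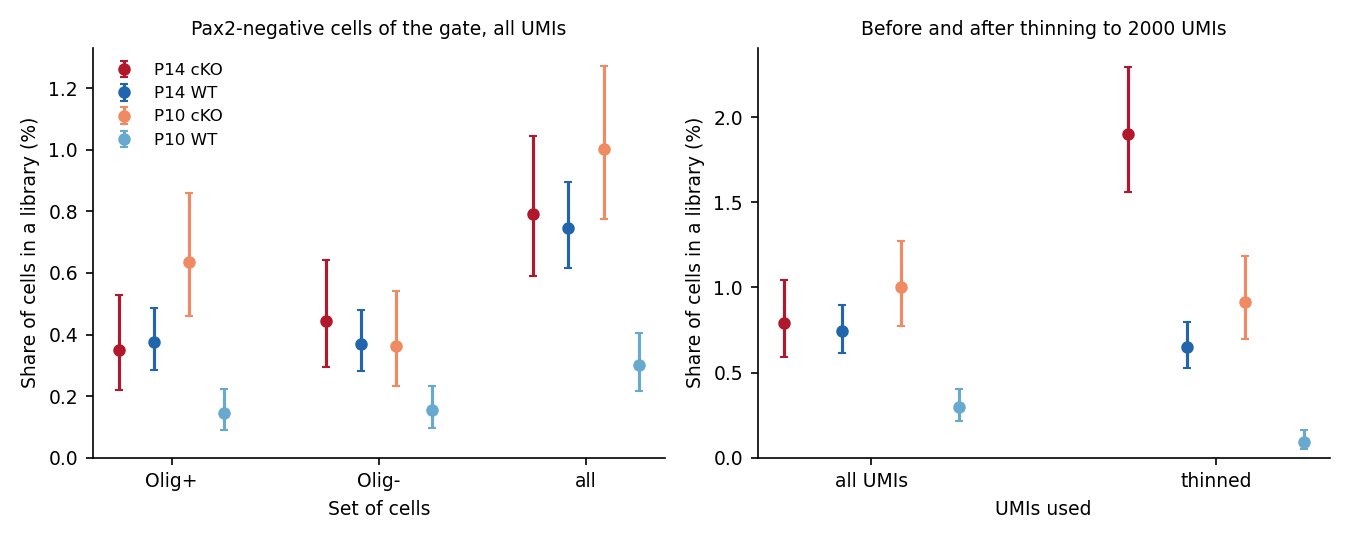
Share of all cells of a library (vertical axis, %) with 95% exact binomial intervals that cover counting error only. Left, Olig+, Olig- and all gated cells with all UMIs; right, all gated cells before and after thinning to 2000 UMIs, where the P14 cKO point moves to 1.90% and the P14 WT point stays below 1%.

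The gated cells were compared with the Pax2-positive cells of the same libraries on summed UMIs with edgeR's quasi-likelihood test and library as a block, with Benjamini-Hochberg adjustment over 10212 genes. At an adjusted p under 0.05, 2117 genes were higher in the gated cells (20.7% of those tested) and 1846 were lower (18.1%). Genes of the oligodendrocyte-lineage list were among those higher: Cspg4, the NG2 proteoglycan, was higher by 6.08 ± 0.20 on the log2 scale (SE, adjusted p = 4.25e-08 with edgeR), Olig2 by 5.19 ± 0.18 and Olig1 by 5.11 ± 0.31. Pdgfra, the receptor for the growth factor of oligodendrocyte precursors, was higher by 4.26 ± 0.16, and Ptprz1, a receptor phosphatase of glial precursors, by 4.90 ± 0.14. Of the 12 genes of the oligodendrocyte-lineage list 10 could be tested, and 7 of them were higher and none lower.

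Other groups moved with them. Of 22 cell cycle genes 20 were higher and none lower, among them Ccnd1, the G1 cyclin, by 4.77, the proliferation antigen Mki67 by 2.58 and the topoisomerase Top2a by 2.16 on the log2 scale. Of 18 cholesterol synthesis genes 13 were higher and none lower, with Hmgcs1, an early enzyme of the pathway, at 1.50. Astroglial genes were higher for 4 of 6 tested, led by the fatty acid binding protein Fabp7 at 4.24. Among ionotropic glutamate receptors 7 of 16 were higher and 2 lower, with the kainate receptor subunit Grik1 at 5.04 and the NMDA receptor subunit Grin3a at 4.53, while the AMPA receptor subunit Gria2 was at 0.23 and did not pass (adjusted p = 0.0866 with edgeR). Of 12 GABA and glycine receptor genes 3 were higher and 3 lower, with Gabrg1 at 3.84 and Gabra3 at 2.37.

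Neuronal groups were mixed, and genes of immature neurons were mostly lower. Of 20 immature neuron genes 15 were lower and 1 higher, among them the tubulin Tubb3 at -1.52, the microtubule regulator Stmn2 at -1.48 and Dcx, a microtubule protein of migrating neurons, at -1.27 on the log2 scale. Of 19 mature neuron genes 8 were lower and 3 higher, and of 15 sodium and calcium channel genes 7 were lower and 3 higher. Potassium and HCN channel genes were more often higher, with 11 of 24 higher and 6 lower, as were synaptic adhesion genes, with 14 of 29 higher and 8 lower. Of 27 interneuron-lineage transcription factors tested 16 were lower and 7 higher. Those lower included Tfap2a at -2.29, Lhx5 at -2.28, Nfib at -1.55, Zic1 at -1.50 and Lhx1 at -1.37. The higher ones included Meis2 at 3.81, Bcl11b at 3.44 and Sox2, a factor of neural progenitors and glia, at 2.03. Of 23 neuronal splicing regulators 15 were lower and 6 higher, with Celf5 at -1.66 and Rbfox2 at -1.34 among the lower and Khdrbs3 at 2.59 and Qk, a splicing factor of glia, at 2.25 among the higher. Genes of the U5 particle and the core spliceosome were nearly level, with 4 of 25 lower, none higher and a median of -0.10, against -0.01 over all genes.

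**Figure D4:**
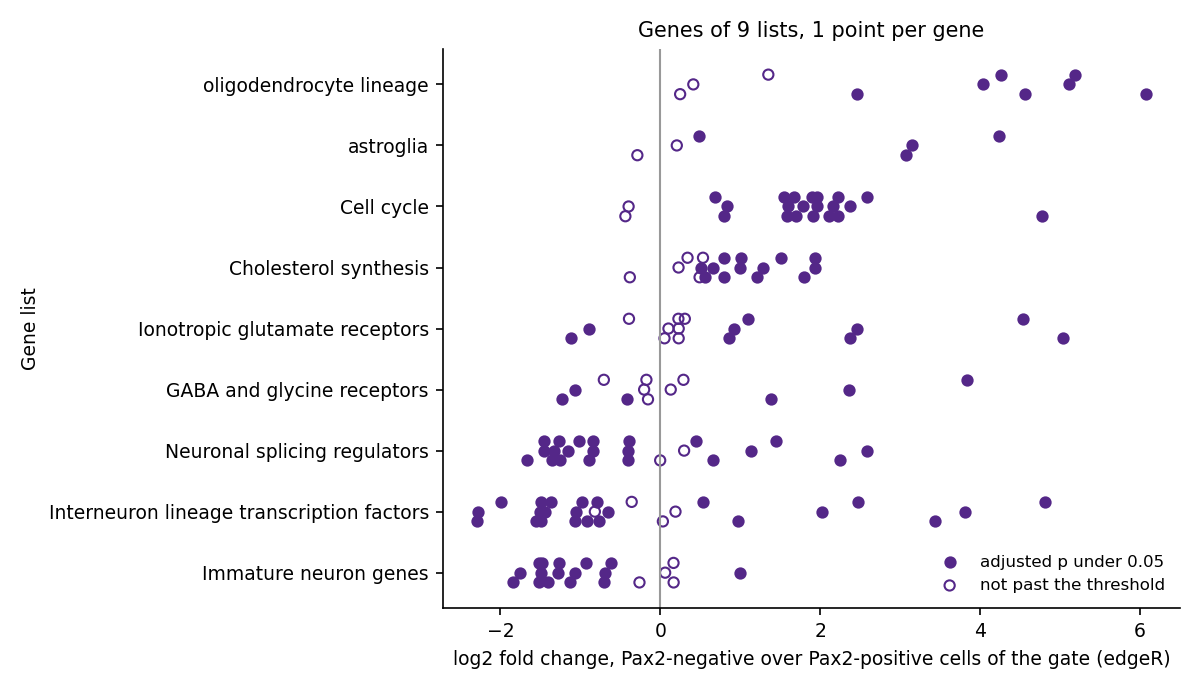
log2 fold change of summed UMIs, gated cells over Pax2-positive cells (horizontal axis, edgeR with library as a block), for the tested genes of 9 lists (rows), filled where the adjusted p was under 0.05. Oligodendrocyte-lineage, cell cycle and cholesterol genes lie to the right, and immature neuron genes lie to the left.

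Few of these differences were called without the Olig+ cells. With the Olig- cells alone set against the Pax2-positive cells, a comparison added after the split was seen, 23 of 8418 genes were higher (0.273%) and 2 were lower (0.0238%). The Pax2-positive cells were not split likewise, so the 33 of them with at least 2 of the 6 lineage genes stayed in this comparison. None of the tested genes of the oligodendrocyte-lineage, cell cycle, cholesterol, immature neuron, transcription factor or splicing regulator lists was called in either direction, and their medians were -0.17, 0.78, 0.35, -0.05, -0.11 and -0.02 on the log2 scale, in that order, against 0.01 over all genes. The 6 genes that made the split are in the oligodendrocyte-lineage list, so its lack of higher calls was largely fixed by the split and is a description. Only 4 of its 12 genes could be tested. Ptprz1, higher in all gated cells, stood at -0.28 here. The genes called higher included 4 of 4 tested fibroblast and mural cell genes and 3 of 3 tested blood genes. Vtn, a matrix protein also called higher, showed how few cells carried some of them. In P14 cKO, 151 of 154 Vtn UMIs of the Olig- cells lay in 1 cell, and in P10 WT 115 of 116 did.

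Markers of other cell types in the gated cells were uneven between libraries. The 7 blood genes, mostly haemoglobins, summed to 173 CPM in P14 cKO, 119 in P14 WT, 23.7 in P10 cKO and 32550 in P10 WT in Olig- cells. The 6 choroid plexus and ependymal genes, chiefly Ttr, summed to 12.4 CPM in P14 cKO, 272 in P14 WT, 2.39 in P10 cKO and 18.2 in P10 WT in all gated cells, and 6101 CPM in the cells of P14 WT outside the gate, the highest of the 4 libraries. The 12 granule neuron genes summed to 1067 CPM in P14 cKO, 1443 in P14 WT, 2016 in P10 cKO and 1821 in P10 WT in Olig- cells, close to the Pax2-positive cells, at 1330, 1461, 1803 and 2263 CPM in the same libraries. At least 3 granule neuron genes were found in 19 of 28 Olig- cells of P14 cKO, 24 of 57 of P14 WT, 20 of 24 of P10 cKO and 16 of 22 of P10 WT. The doublet caller Scrublet marked 11 of the 274 gated cells, 5 of them Olig+ cells. Without these 11 cells, 167 genes were more than 2-fold higher and 121 lower in P14 cKO than in P14 WT, close to the counts below. The part of the other markers in the results below was not tested.

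Gated cells with a UMI of Slc6a5, the glycine transporter, were then set against those without, within each library. There were 15 such cells in P14 cKO, 41 in P14 WT, 12 in P10 cKO and 5 in P10 WT, and 72 of the 73 were Olig- cells. Because Slc6a5 nearly never appeared in Olig+ cells, this comparison largely repeats the split: of 5899 genes, 715 were higher in Slc6a5-positive cells (12.1%) and 873 lower (14.8%, edgeR, library block). All 9 tested oligodendrocyte-lineage genes were lower, with Olig1 at -6.66 and Pdgfra at -5.77 on the log2 scale, and 12 of 14 cell cycle genes were lower. Of 20 immature neuron genes 16 were higher and 1 lower, with Tubb3 at 2.24, Stmn2 at 1.85 and Dcx at 1.70. Among transcription factors 11 of 20 were higher and 4 lower, with Lhx5 at 3.41, Tfap2a at 2.57 and Rora at 2.21. Within the Olig- cells the share with Slc6a5 was 53.6% in P14 cKO, 70.2% in P14 WT, 50% in P10 cKO and 22.7% in P10 WT. It was below that of the Pax2-positive cells in every library, at 85.4%, 81.2%, 89.5% and 29.7%. Median depths in the same order were 11100, 3558, 10992 and 6809 UMIs in Olig- cells and 13329, 7573, 11141 and 7016 UMIs in Pax2-positive cells. Slc6a5 is a rule gene, so these shares are a description.

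For the genotype comparison, the targeted gene came to 36 UMIs in the gated cells of P14 cKO (40.6 CPM), against 65 in P14 WT (60.5 CPM), and 69 in P10 cKO (54.9 CPM), against 32 in P10 WT (72.6 CPM). Eftud2 was lower in cKO at both ages by log2 ratios of -0.57 (-1.21 to 0.03) and -0.42 (-1.03 to 0.25), and both counting intervals spanned 0. The series title places the loss in Purkinje cells, and the rule left out cells with a UMI of the Purkinje cell gene Pcp2. The gated cells are therefore not those in which the title places the loss. The deleted part of the gene was not given, and reads from the end of a transcript outside it would not show a deletion, so these values check neither the labels nor the loss. Over both ages, with age as a term, edgeR called 0 of 10209 genes higher (0.0%) and 0 lower (0.0%) in cKO, with 1 residual degree of freedom; 175 genes had an unadjusted p under 0.05, and DESeq2 called 6 higher and 5 lower. Without the P14 WT library many more genes were called in a fit of genotype alone, but P10 WT was then the only WT library. Genotype in that fit cannot be told apart from that library and its Cell Ranger version. Its counts are therefore no result about genotype and appear only among the settings in the last section. In the Olig- cells alone, 0 of 5704 genes were higher and 1 lower (0.0175%), Klf2, a transcription factor. Klf2 had 0 UMIs in the Olig- cells of both cKO libraries, against 23 UMIs in those of P14 WT, all in 1 cell, and 61 in those of P10 WT, 59 of them in 1 cell.

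At day 14, 164 of 6838 genes with at least 50 UMIs over both libraries were more than 2-fold higher in the gated cells of P14 cKO than of P14 WT (2.4%), and 125 were more than 2-fold lower (1.83%). In 60 and 32 of these the whole counting interval lay past 2-fold. The highest were myelin genes, and most of their UMIs lay in 1 cell. Mbp, a structural protein of myelin, had 1141 UMIs in 34 of 50 cells of P14 cKO, against 48 UMIs in 35 of 115 cells of P14 WT, a log2 ratio of 4.83 (4.43 to 5.30). Of the cKO UMIs, 1000 lay in the cell with 114235 UMIs, the deepest gated cell of all, which held 12.9% of the UMIs of its library's gated cells and UMIs of 4 of the 6 lineage genes. Mobp, another myelin protein, had 630 UMIs in 11 cells of P14 cKO, with 610 of them in 1 cell, against 2 UMIs in 2 cells of P14 WT, a log2 ratio of 8.25 (6.72 to 11.6). Of the other named genes, Mag, Mog, Cldn11, Nkain2, Tmem163, Kndc1, Tmem141, Pex5l and Hhip likewise had over 50% of their cKO UMIs in 1 cell, as had 95 of the 164 genes called higher. With the cell richest in each gene removed from each library, 23 of 6186 genes were higher and 162 lower, and 21 and 95 of these were among the earlier calls; removing 1 cell takes a larger share of the 50 P14 cKO cells than of the 115 P14 WT cells.

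Of the 12 named lower genes, 4 had over 50% of their P14 WT UMIs in 1 cell: Ptgds with 90.6%, Slc6a20a with 75.4%, Sned1 with 58.9% and Klf2 with 53.2%. Ebf3, a helix-loop-helix transcription factor of differentiating neurons, had 4 UMIs in 3 of 50 cells of P14 cKO, against 69 UMIs in 21 of 115 cells of P14 WT, a log2 ratio of -3.67 (-5.75 to -2.41). Pde1c, a calmodulin-dependent phosphodiesterase, had 13 UMIs in 10 cells of P14 cKO, against 113 in 40 cells of P14 WT, a log2 ratio of -2.80 (-3.80 to -2.01). Cacna2d1, an auxiliary calcium channel subunit, had 58 UMIs in 11 cells of P14 cKO, against 333 in 33 cells of P14 WT, a log2 ratio of -2.23 (-2.67 to -1.84). The richest P14 WT cell held 14.5% of the Ebf3 UMIs, 11.5% of the Pde1c UMIs and 15.9% of the Cacna2d1 UMIs. Clmp, an adhesion molecule, and Uncx, a homeobox factor, were at -2.86 and -2.89. In Olig+ cells alone, 191 of 5431 genes were more than 2-fold higher (3.52%) and 119 lower (2.19%). Cacna2d1 and Pde1c were lower in the Olig+ cells as well, at -3.08 and -2.78, and Meox1, a mesodermal homeobox gene, had 3 UMIs in Olig+ cells of P14 cKO, against 49 in those of P14 WT, with none in the Olig- cells of either. Ttr, with 11 UMIs in P14 cKO, against 288 in P14 WT, is one of the choroid plexus genes whose library levels are given above, and their part in this value was not tested.

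**Figure D5:**
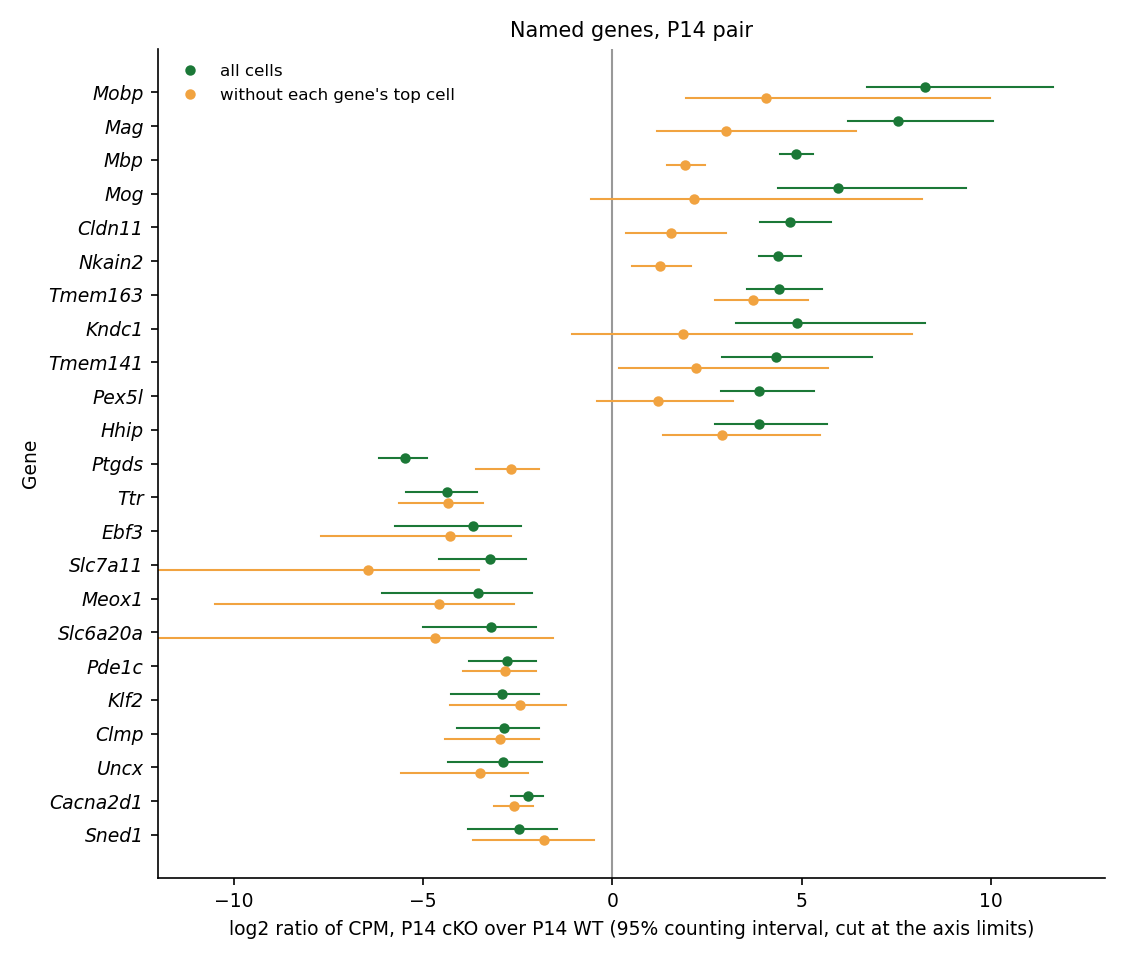
log2 ratio of CPM, P14 cKO over P14 WT, with 95% counting intervals (horizontal axis), for named genes in the gated cells, with all cells (green) and without the cell richest in each gene of each library (orange). The myelin genes move toward 0 without that cell, from 4.83 to 1.91 for Mbp, while Ebf3, Pde1c and Cacna2d1 stay below -2.

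The list values at day 14 are descriptions, with no test. The median log2 ratio over all 6838 genes was 0.02. Of 25 synaptic adhesion genes 22 were lower in P14 cKO, with a median of -0.27, and the neurexin Nrxn3 was at -0.12. Immediate early genes, transcribed within minutes of stimulation, were lower for 10 of 10, with a median of -0.63, and Jun stood at 353 CPM in P14 cKO, against 590 CPM in P14 WT. Of 22 spliceosome genes 15 were higher with a median of 0.21, Snrpg being highest of the 5 most abundant at 0.81, and of 21 splicing regulators 14 were lower with a median of -0.28, among them Srrm4, a factor for neuronal microexons, at -1.42. Of 14 cholesterol genes 11 were higher, with a median of 0.30. Of 21 potassium and HCN channel genes 15 were lower, with Kcnj6 at -1.96 and Kcnmb2 on the other side at 1.25. Lists for GABA handling, GABA and glycine receptors, immature neurons and mature neurons had medians of -0.10, -0.10, -0.10 and -0.03. Transcription factors, ionotropic glutamate receptors, sodium and calcium channels, axon guidance genes, calcium buffers and molecular layer interneuron genes had medians of -0.21, -0.21, -0.34, -0.26, -0.23 and -0.17. Cell cycle genes, Atf4 targets, mitochondrially encoded genes, heat shock genes and p53 targets had medians of 0.38, 0.34, 0.12, 0.03 and -0.05, and the remaining lists had at most 4 genes that could be tested.

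Within Olig- cells, 48 of 2481 genes were more than 2-fold higher in P14 cKO (1.93%) and 67 lower (2.7%). Gabra2, a subunit of synaptic GABA receptors, had 94 UMIs in 14 of 28 Olig- cells of P14 cKO, against 26 in 13 of 57 of P14 WT, a log2 ratio of 1.96 (1.34 to 2.67). Fabp3, a fatty acid binding protein, had 174 UMIs in 17 cells of P14 cKO, against 58 in 16 cells of P14 WT, a log2 ratio of 1.70 (1.28 to 2.17). The richest P14 cKO cell held 28 of the 94 Gabra2 UMIs and 40 of the 174 Fabp3 UMIs. Cmss1, Camk2n1 and Dynll2 had log2 ratios of 1.20, 1.47 and 1.45. On the lower side Nav2, a regulator of neurite growth, had 103 UMIs in 18 cells of P14 cKO, against 322 in 35 cells of P14 WT, a log2 ratio of -1.51 (-1.85 to -1.19). Hs6st3, a heparan sulphate sulphotransferase, was at -1.97. The Olig- cells of P14 cKO were the deeper ones, at a median of 11100 UMIs against 3558 in P14 WT.

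Immediate early genes in Olig- cells were lower for 7 of 7 with a median of -1.73, but the P14 WT side leaned on 1 cell per gene. Fosb had 2 UMIs in P14 cKO, against 53 in P14 WT, 49 of them in 1 cell, and Egr1 had 20, against 95, with 72 in 1 cell.

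The day 10 pair is given beside these for its values only. There, 1339 of 6449 genes were more than 2-fold higher in the gated cells of P10 cKO than of P10 WT (20.8%) and 202 lower (3.13%). In Olig- cells 550 of 2120 genes were higher (25.9%) and 125 lower (5.9%), and in Olig+ cells 999 of 5047 were higher (19.8%) and 259 lower (5.13%). The ratio followed gene length: in 3 equal groups of genes with median lengths of 8.71, 36.7 and 136 kb, the median log2 ratio was -0.54, -0.08 and 1.10, and in cells outside the gate, grouped the same way, it was -0.44, -0.07 and 0.87. In the P14 pair the same medians in the gated cells were 0.09, 0.04 and -0.10. Axon guidance genes at day 10 were higher for 17 of 17, and potassium and HCN channel genes for 17 of 19, while mitochondrially encoded genes were lower for 12 of 12. The share of all genes higher or lower is not given beside these counts, and the ratio followed gene length over all genes. They are therefore a description and not a result about these lists. The part of the Cell Ranger versions in this was not tested.

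From day 10 to day 14 in cKO, 247 of 7358 genes were more than 2-fold higher in the gated cells of P14 cKO (3.36%) and 248 lower (3.37%). Xist was present in the gated cells of P14 cKO but not of P10 cKO, and the Cell Ranger versions were 7.1.0 and 7.0.1. Age, sex of the source animals and read counting therefore cannot be told apart here, nor in the Olig+ and Olig- cells below. All 8 genes at the top of the higher side, led by Mobp and Mag, had 91.8% to 98.6% of their P14 cKO UMIs in 1 cell. On the lower side Ebf3 had 4 UMIs in P14 cKO, against 180 in 24 of 66 cells of P10 cKO, Kcnj6, a potassium channel, had 21, against 282 in 32 cells, and Ccnd2, a G1 cyclin, had 66, against 496. Cell cycle genes were lower at day 14 for 21 of 21 tested, with a median log2 ratio of -0.73. Short, middle and long genes as groups had medians of -0.06, -0.08 and -0.03 in the gated cells. Ebf3, Pde1c, Clmp and Uncx were thus at their highest level in P10 cKO among the 4 libraries, at 143, 126, 118 and 89.1 CPM.

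In the Olig+ cells 189 of 5973 genes were more than 2-fold higher in P14 cKO (3.16%) and 189 lower (3.16%). In the Olig- cells the counts were 210 of 2719 genes more than 2-fold higher in P14 cKO (7.72%) and 242 lower (8.9%). Gad1 stood at 844 CPM in P14 cKO, against 204 CPM in P10 cKO, and Gad2 at 519 CPM, against 148 CPM. Both are genes of the rule that chose the cells, so these levels are a description only. Gabra2 had 94 UMIs in 14 of 28 cells of P14 cKO, against 5 UMIs in 5 of 24 cells of P10 cKO, and Mgat4c, a glycosyltransferase, had 387 in 20 cells, against 55 in 12 cells. Mature neuron genes were higher for 9 of 10, with a median of 0.66, and glutamate receptor genes of the ionotropic kind for 8 of 9. The share of all genes higher or lower in Olig- cells is not given beside the list counts here, so they are a description. Cell cycle genes were lower for 9 of 9, with a median of -3.80: Top2a had 3 UMIs in P14 cKO, all in 1 cell, against 187 UMIs in 5 of 24 cells of P10 cKO, and the histone gene Hist1h1b had 1 UMI, against 308 in 8 cells. The P10 cKO levels of Top2a and Hist1h1b thus rest on 5 and 8 cells.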

How the data were processed

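Whole mouse cerebellum was measured by droplet single-cell RNA-seq, with 1 library per genotype and age. The deposited matrices hold UMI counts per gene and barcode, which the authors made, per the file headers, with Cell Ranger 7.1.0 at day 14, and at day 10 with 7.0.1 for cKO and 5.0.0 for WT. Version 3.0.2 of Cell Ranger, version 4.1.3 of Seurat and the mm10 build stand in the submitters' processing notes; whether introns were counted is not given in the sources used here. Cells with under 500 genes or over 20% mitochondrial UMIs were left out, which left 6308, 15395, 6593 and 14280 cells of P14 cKO, P14 WT, P10 cKO and P10 WT, with medians of 12347, 7838, 11008 and 8490 UMIs. No cells were removed as doublets in the main results; Scrublet in Scanpy 1.11.5 gave an alternative.

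Counts were summed per library. Sums were fitted with edgeR 4.0.16 in R 4.3.3 (TMM, a minimum count of 10, quasi-likelihood test, Benjamini-Hochberg adjustment), with DESeq2 1.42.0 as an alternative. Pairs of libraries were compared by the log2 ratio of CPM, after 0.5 UMI was added to each sum, with a 95% exact conditional binomial interval. Genes needed 50 UMIs over both libraries, and more than 2-fold refers to the ratio itself, with the counts whose whole interval lay past 2-fold beside it at day 14. Gene lengths came from GENCODE, matched for 32235 of 32285 IDs.

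Members and the 26 gene lists and 11 lists for other cell types were chosen with earlier results of these data known, some of them after that session had seen the data. Named genes were, at day 14, up to 12 per direction by the interval bound nearest 0, up to 8 per direction for age, up to 12 per direction in each fit, and up to 5 of each list by UMIs plus any past 2-fold. Mitochondrial, sex-linked, haemoglobin, ribosomal protein and predicted genes were left out, and some genes of these lists are not reported here. The Olig split, the genes named only within Olig+ or Olig- cells and the removal of the richest cell were chosen after the values were seen. Fits within libraries set cells of the same 4 libraries against each other. A fit of Sorcs3-positive against Nxph1-positive cells without Slc6a5 had too few cells and was not made.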

Additional observations from a re-analysis of the deposited data

Results flagged for a closer look

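In the gated cells, 5 named genes had log2 ratios of opposite sign at the 2 ages, and the difference between ages was not tested. Ebf3 was at -3.67 in the P14 pair (cKO over WT) and at 3.28 in the P10 pair, and Pde1c was at -2.80 and 2.40. Cacna2d1 was at -2.23 at day 14 and at 3.25 at day 10. Clmp was at -2.86 and 1.03, and Uncx at -2.89 and 1.02, at day 14 and day 10.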

How the results depend on the processing

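With 1 library per group, results at one age have no replicate check, and the depth of the gated cells differs between libraries. Genes more than 2-fold higher in P14 cKO than P14 WT numbered 164, against 52 with at least 4 of 8 rule genes, 19 with cells thinned to 2000 UMIs, 369 and 39 with a minimum of 20 and 200 UMIs, 71 without the deepest cell, 48 in Olig- cells and 23 without the cell richest in each gene. Genes lower numbered 125, against 74, 32, 337 and 23 under the same 4 settings, 67 in Olig- cells and 194 with Slc6a5-positive and negative cells given the same weight. For P14 cKO over P10 cKO, genes higher numbered 247, against 147 with 4 of 8 genes, 23 thinned, 467 and 71 with the other minimums, 155 without the deepest cell and 86 without the richest cell. Genes lower numbered 248, against 18 thinned, 550 and 45 with the other minimums and 386 with the same weight.

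Some list medians at day 14 moved. With 4 of 8 genes, mature neuron genes were at 0.25, potassium channels at 0.16, spliceosome genes at 0.46 and cholesterol genes at -0.27. Thinned, immature neuron genes were at 0.18 and mitochondrially encoded genes at -0.24. In Olig- cells mature neuron genes were at 0.27, potassium channels at 0.058, sodium and calcium channels at -0.48, immediate early genes at -1.73 and mitochondrially encoded genes at -0.26. In Olig+ cells GABA receptors were at -0.42, transcription factors at -0.44 and immature neuron genes at -0.49. Synaptic adhesion genes were at -0.44 with the same weight and -0.15 without the deepest cell, where cell cycle genes were at 0.57. The cKO over WT ratio of shares was 2.92 at day 14 and 9.62 at day 10 with thinned cells.

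The genotype fit called 0 genes in either direction, against 6 higher and 5 lower with DESeq2, 31 and 26 with no filter, and 1 lower in Olig- cells. Leaving out 1 library gave 0 to 738 higher and 0 to 30 lower; the highest counts came without P14 WT, and 1 lower gene was called without P10 WT. Leaving out 1 library in the genotype fit left 1 library in a genotype, which cannot be told apart from that genotype, so these counts are no result about it. The Slc6a5 fit gave 267 higher and 526 lower with no library block, 178 and 180 thinned, 1675 lower with no filter, and 433 to 812 higher and 601 to 1146 lower with 1 library left out. The fit against Pax2-positive cells gave 1053 and 462 with no library block, 545 and 430 thinned, 2869 lower with no filter, 23 and 2 in Olig- cells, and 1719 to 2279 higher and 1379 to 1685 lower with 1 library left out. In Olig- cells 6 genes that were higher in all gated cells turned negative: Xylt1 at -0.92, Ptprz1 at -0.28, Sntg1 at -0.82, Csmd3 at -1.25, Brinp3 at -1.38 and S100a13 at -0.53. The fit of Olig- cells kept the 33 Pax2-positive cells with at least 2 of the 6 lineage genes, so such cells were left out on 1 side only. The cause of these moves was not tested. Of the results for named genes under planned settings, 676 stayed within the main counting interval or, in the fits, kept their direction and call. Another 22 ratios moved out of that interval, and 3 results of the fits lost the call. Genes below the minimum count of a setting were not counted, and whether ratios stayed past 2-fold was not part of this. No paired analysis was possible because each group is 1 library; the planned settings of the Sorcs3 and Nxph1 fit were not run.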
